A study of Homo sapiens with 24 samples.

Results

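CHAC1 and 7 further genes of cystine import, cysteine synthesis and glutathione metabolism (SLC7A11, CBS, CTH, GSS, GGCT, GSR and GPX4) were followed in HCT116 colorectal carcinoma cells and in a p53 null subline treated with isoginkgetin. These 8 genes, of 18613 measured, were chosen by name with their response to the drug already known, so that the differences between isoginkgetin and DMSO and the levels without drug are given for them as a description, with no test. Each gene was read from the rows of the probe-set table that carry its symbol and no other, 264 in all, of which 150 lie in exons and 114 span exon junctions. All 8 genes were measured, and all had a mean level of at least 5 log2 over the arrays (CBS through HCT116 replicate 1 alone), where log2 stands for the logarithm of the probe-set signal, so that 1 unit is a 2-fold difference.

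Isoginkgetin, a plant biflavonoid known as an inhibitor of pre-mRNA splicing, was given at 30 µM for 8 h. The 6 groups, each with 2 arrays from independent experiments, were HCT116p53-/- cells with isoginkgetin, with an equivalent volume of the solvent DMSO, and untreated, and HCT116 cells with isoginkgetin, with DMSO, and untreated. All were grown in the same medium with calf serum and antibiotics, and no group carried a further allele or agent per the labels. The p53 null cells are a single subline supplied by another laboratory, so a difference between the lines rests on 1 subline. Total RNA was hybridised to the Affymetrix Human Transcriptome Array 2.0, and the 12 arrays form 4 sets, each of 1 line and 1 replicate number with its isoginkgetin, DMSO and untreated arrays.

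Glutathione, the main low molecular weight thiol of the cell, is made from glutamate, cysteine and glycine, and cysteine is usually the limiting part. Cells obtain cysteine by importing its oxidised form, cystine, in exchange for glutamate, or by making it from methionine through the transsulfuration pathway. Glutathione feeds the peroxidases that detoxify lipid peroxides, it is recycled by a reductase, and it is broken down in the cytosol by the CHAC enzymes. CHAC1 and SLC7A11 are known targets of the transcription factor ATF4 in amino acid shortage and in stress of the endoplasmic reticulum.

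The 3 arrays labelled HCT116 replicate 1 stood apart from the other 9. Their 14 colon epithelium markers averaged 4.47 log2, against 7.61 to 7.79 in the other sets, and 0 of the 14 reached 8 log2, against 7 in the other sets. EPCAM, a surface marker of epithelium, was at 4.62 log2 in HCT116 replicate 1, against 12.0 to 12.2 in the other sets. Of the 14, 8 lay more than 1 log2 below every other set and 1, VIL1, more than 1 log2 above (4.78 against 3.34 to 3.67). CDX1 (4.02), CEACAM5 (4.01), LGALS4 (3.61) and MUC13 (3.45) also read higher there than in every other set. The 11 measured mesenchymal markers averaged 6.24 log2 there, against 3.49 to 3.65 in the other sets. The highest were VIM at 12.6, PDGFRA at 9.66, THY1 at 7.79 and FBN1 at 7.33, each at most 3.67 in the other sets. Of the 11, 5 lay more than 1 log2 above every other set and 2 reached 8 log2. COL1A1 (4.80), COL1A2 (4.67), PDGFRB (4.22), LUM (4.02) and FAP (3.77) did neither. S100A4 was lower there than in HCT116 replicate 2 (5.05 against 5.56). The 4 blood and 2 endothelial markers measured differed by less than 1 log2 between HCT116 replicate 1 and the mean of the others. CDKN1A, a direct p53 target, lay at 6.91 to 7.53 log2 on the p53-null arrays. It lay at 7.84 to 7.98 in HCT116 replicate 1 and at 8.33 to 8.41 in HCT116 replicate 2. The median over genes was 5.94 to 5.96 log2 on the HCT116 replicate 1 arrays, against 5.115 to 5.324 on the others. CDKN1A therefore does not check the genotype label of HCT116 replicate 1. Differences, tests and correlations that include HCT116 replicate 1 are therefore also given without it, and its part in a difference between the lines was not tested.

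CHAC1 is the gene on which the account below turns, and the region before its start was read for the composite element that ATF4 binds together with C/EBP proteins, TGATGNAA on either strand (TTNCATCA when read from the opposite strand). The 250 bases before an annotated start are shown for CHAC1, for ASNS, the gene whose pattern over the arrays was most like that of CHAC1, and for CTH, a gene of cysteine synthesis, from RefSeq on GRCh38.p14. Capitals mark the element.
CHAC1, chr15:40953221-40953470, plus strand: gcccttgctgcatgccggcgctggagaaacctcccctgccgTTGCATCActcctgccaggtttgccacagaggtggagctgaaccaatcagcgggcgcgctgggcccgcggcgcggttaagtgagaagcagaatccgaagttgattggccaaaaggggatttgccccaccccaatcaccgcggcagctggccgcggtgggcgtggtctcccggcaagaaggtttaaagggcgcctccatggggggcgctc
ASNS, chr7:97872409-97872658, minus strand: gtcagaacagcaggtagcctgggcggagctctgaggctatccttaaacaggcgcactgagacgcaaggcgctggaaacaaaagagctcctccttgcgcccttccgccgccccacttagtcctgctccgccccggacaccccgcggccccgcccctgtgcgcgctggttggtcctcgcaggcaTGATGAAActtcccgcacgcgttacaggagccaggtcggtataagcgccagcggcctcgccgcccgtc
CTH, chr1:70411018-70411267, plus strand: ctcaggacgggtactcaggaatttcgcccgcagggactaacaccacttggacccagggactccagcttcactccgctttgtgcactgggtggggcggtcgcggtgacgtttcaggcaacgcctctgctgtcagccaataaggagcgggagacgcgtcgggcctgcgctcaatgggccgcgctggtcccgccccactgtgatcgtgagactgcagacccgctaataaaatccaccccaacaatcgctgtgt
The element begins 209 bases before the start of CHAC1, as TTGCATCA, and 68 bases before that of ASNS, as TGATGAAA. The second ASNS start in the table, chr7:97872166-97872415 on the minus strand, had no match, and these letters do not occur in the CTH window. It was present in 3.14% of 35116 promoters of the same length, or at 3.89% of gene symbols. Of the 8 genes, 4 had an entry in the promoter table (CHAC1, CBS, CTH and GPX4), and CHAC1 was the one with a match. The antioxidant response element TGACNNNGC, bound by NRF2, was matched in CBS, against 10.9% of all promoters, and the cyclic AMP element TGACGTCA in none of the 4, against 1.65%. A match is a sequence description and not a measured binding site.

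CHAC1 encodes a gamma-glutamylcyclotransferase that splits glutathione into 5-oxoproline and cysteinylglycine. As the mean of its 10 exon probe sets, CHAC1 stood at 8.66 log2 with isoginkgetin, 4.99 with DMSO and 5.19 untreated in p53-null replicate 1. In p53-null replicate 2 it stood at 7.55 with isoginkgetin, 5.34 with DMSO and 5.35 untreated. Isoginkgetin arrays of the p53-null line thus lay above all 4 of its control arrays. In HCT116 replicate 2, CHAC1 stood at 9.54 with isoginkgetin, 5.09 with DMSO and 5.05 untreated. In HCT116 replicate 1 it stood at 9.80 with isoginkgetin, 9.93 with DMSO and 10.01 untreated. As deposited, all 3 arrays of that set lay above every isoginkgetin array of the other sets. The median over genes was also higher on these arrays, at 5.94 to 5.96 log2 against 5.31 for isoginkgetin in HCT116 replicate 2. The order against HCT116 replicate 2 is therefore not clear of the scale of the arrays.

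Between isoginkgetin and DMSO, CHAC1 was higher by 3.67 log2 (12.8-fold) in p53-null replicate 1 and by 2.21 log2 (4.61-fold) in replicate 2, a mean of 2.94 log2 (SD 1.04, n = 2 sets). It was higher by 4.45 log2 (21.9-fold) in HCT116 replicate 2, and the difference was -0.13 log2 in HCT116 replicate 1, which makes the HCT116 mean of 2.16 log2 (SD 3.24, n = 2 sets) a mean of 2 unlike values. Over the 3 sets other than HCT116 replicate 1 the mean was 3.44 log2 (SD 1.14, n = 3 sets). In each of these 3 sets CHAC1 ranked 1 of 18613 genes by the difference, and in HCT116 replicate 1 it ranked 15537. In RNA from a whole culture, RNA per cell and the share of cells that carry it cannot be told apart.

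SLC7A11 encodes the transport subunit of the cystine-glutamate exchanger, system xc-. With the mean of 16 exon probe sets, it stood at 11.01 log2 with isoginkgetin, 8.73 with DMSO and 8.99 untreated in p53-null replicate 1. In p53-null replicate 2 it stood at 10.35 with isoginkgetin and at 8.75 both with DMSO and untreated. In HCT116 replicate 2 it stood at 11.73 with isoginkgetin, 9.15 with DMSO and 9.36 untreated, and within each of these 3 sets the isoginkgetin array was the highest by more than 1.5 log2. In HCT116 replicate 1 it stood at 10.10 with isoginkgetin, 10.11 with DMSO and 10.03 untreated, between the drug-treated and the control arrays of the other sets.

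SLC7A11 was higher with isoginkgetin than with DMSO by 2.28 log2 (4.86-fold) and 1.60 log2 (3.04-fold) in p53-null replicates 1 and 2, with a mean of 1.94 log2 (SD 0.48, n = 2 sets). In HCT116 replicate 2 it was higher by 2.58 log2 (5.98-fold), and in HCT116 replicate 1 the difference was -0.0097 log2. The HCT116 mean was 1.29 log2 (SD 1.83, n = 2 sets), and the mean over the 3 sets without HCT116 replicate 1 was 2.16 log2 (SD 0.50, n = 3 sets). SLC7A11 ranked 3 of 18613 in both p53-null sets, 5 in HCT116 replicate 2 and 10545 in HCT116 replicate 1.

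**Figure D1:**
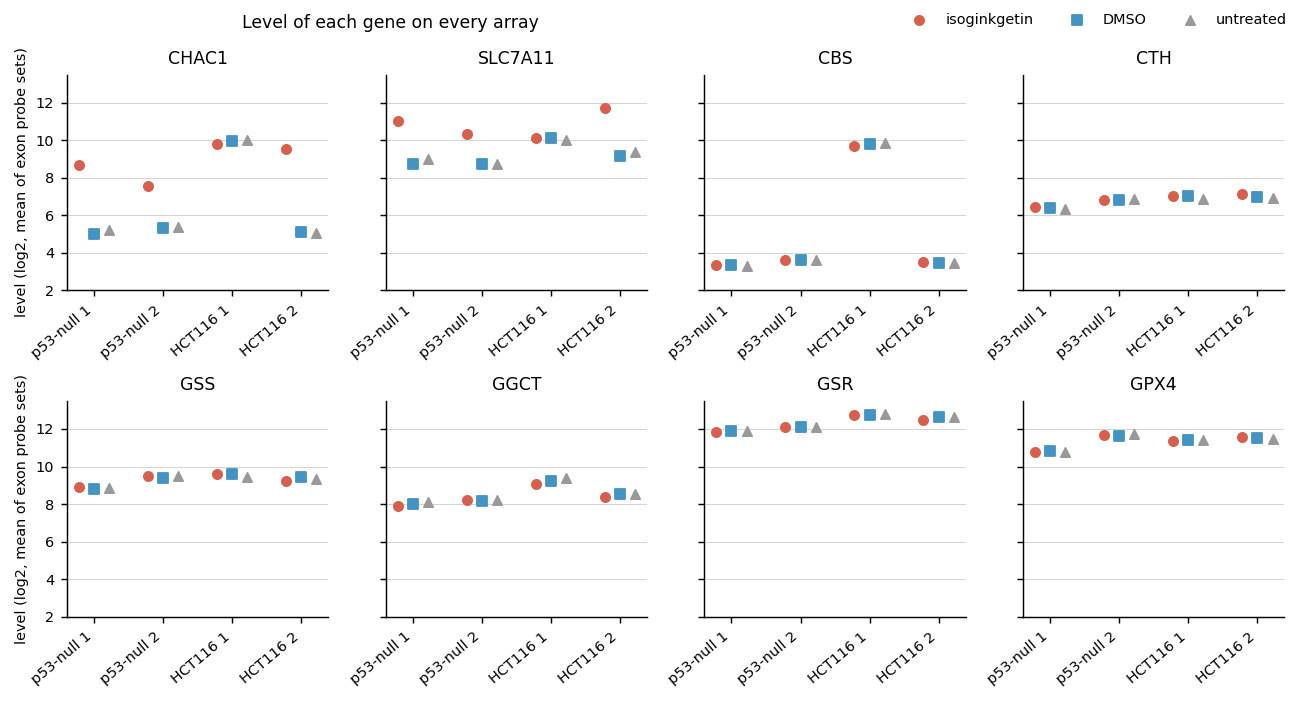
Level of each of the 8 genes on every array, as the mean log2 value of its exon probe sets (vertical axis), by set (horizontal axis, line and replicate number), with isoginkgetin, DMSO and untreated arrays side by side. CHAC1 and SLC7A11 lie higher with isoginkgetin in 3 sets, CHAC1 at 8.66, 7.55 and 9.54 against 4.99, 5.34 and 5.09 with DMSO, while in HCT116 replicate 1 CHAC1 and CBS are at 9.71 to 10.01 on all 3 arrays.

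CBS and CTH are the enzymes of transsulfuration. CBS, cystathionine beta-synthase, joins homocysteine and serine, and its level differed far more between sets than between treatments. CBS stood at 9.71 log2 with isoginkgetin, 9.79 with DMSO and 9.83 untreated in HCT116 replicate 1. Over the 9 other arrays its level was 3.31 to 3.63 log2. With DMSO, 25 of its 47 exon probe sets reached 8 log2 in HCT116 replicate 1 and 0 of 47 did so in the other sets. Of its 31 junction probe sets, 4 in p53-null replicate 1, 5 in p53-null replicate 2 and 4 in HCT116 replicate 2 did reach 8 log2 with DMSO, with maxima of 13.2, 14.0 and 13.9 log2, against 18 in HCT116 replicate 1. CBS has a near-identical copy in some genome annotations, so what its probe sets measure is uncertain. The isoginkgetin minus DMSO difference of CBS was 0.0033 log2 on average in the p53-null line (SD 0.029, n = 2 sets), -0.087 log2 in HCT116 replicate 1 and 0.045 log2 in HCT116 replicate 2. With the median of its exon probe sets in place of the mean, the HCT116 average was -0.30 log2, against -0.021 with the mean.

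CTH, cystathionine gamma-lyase, releases cysteine from cystathionine. Its mean level was 6.43 with isoginkgetin, 6.37 with DMSO and 6.35 untreated in p53-null replicate 1, and 6.82, 6.84 and 6.85 on the same arrays of replicate 2. In HCT116 replicate 1 it was 7.02 with isoginkgetin, 7.05 with DMSO and 6.87 untreated, and in HCT116 replicate 2 it was 7.16 with isoginkgetin, 6.98 with DMSO and 6.91 untreated. Between isoginkgetin and DMSO the gene means lay within 0.18 log2 of each other in every set, with an average of 0.023 log2 (SD 0.057, n = 2 sets) in the p53-null line. The probe sets of CTH did not read alike in HCT116 replicate 2. The 5 exon probe sets with an untreated mean of at least 8 log2, a filter chosen after the values were seen, were higher with isoginkgetin there by 0.94 to 1.75 log2, 5 of 5, with levels of 10.35 to 13.0 against 9.40 to 11.3 with DMSO. The other 14 exon probe sets had a median difference of 0 log2, from -1.49 to 0.19, in that set. In the p53-null line the same 5 differed by -0.031 to 0.52 log2 in replicate 1 and by -0.30 to 0.082 in replicate 2, and in HCT116 replicate 1 by -0.19 to 0.26. Among the 15 CTH junction probe sets, 4 were at least 1 log2 higher with isoginkgetin in HCT116 replicate 2 and 0 were so in each of the other 3 sets.

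GSS, glutathione synthetase, adds glycine in the last step of synthesis. It stood at 8.90 with isoginkgetin, 8.81 with DMSO and 8.85 untreated in p53-null replicate 1, and at 9.49, 9.38 and 9.47 on the same arrays of replicate 2. In HCT116 replicate 1 the values were 9.60 with isoginkgetin, 9.58 with DMSO and 9.45 untreated, and in HCT116 replicate 2 they were 9.21, 9.42 and 9.35. The difference between isoginkgetin and DMSO was 0.097 log2 (SD 0.011, n = 2 sets) in the p53-null line, 0.023 in HCT116 replicate 1 and -0.21 in HCT116 replicate 2. In HCT116 replicate 2 the isoginkgetin array was thus the lowest of its set, and the 16 GSS junction probe sets averaged -0.49 log2 there, with the lowest at -1.77, against junction means of 0.31, 0.025 and 0.14 log2 in p53-null replicates 1 and 2 and HCT116 replicate 1.

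GGCT acts on gamma-glutamyl amino acids, and GSR reduces oxidised glutathione with NADPH. GGCT differed by -0.10 and 0.079 log2 in p53-null replicates 1 and 2, by -0.17 in HCT116 replicate 1 and by -0.12 in HCT116 replicate 2. GSR differed by -0.040 and -0.0012 log2 in the p53-null sets, by 0.0029 in HCT116 replicate 1 and by -0.14 in HCT116 replicate 2, with levels between 11.83 and 12.75 log2 on the isoginkgetin arrays and between 11.87 and 12.74 on the DMSO arrays. GPX4, the peroxidase that reduces phospholipid hydroperoxides and restrains ferroptosis, stood at 10.79 to 11.66 log2 with isoginkgetin, against 10.81 to 11.62 with DMSO. Its difference was -0.021 and 0.034 log2 in the p53-null sets, -0.066 in HCT116 replicate 1 and 0.041 in HCT116 replicate 2. Over CBS, CTH, GSS, GGCT, GSR and GPX4 and the 4 sets, the gene means of the exon differences ran from -0.21 to 0.18 log2. Those of the junction differences ran from -0.49 to 0.37. Single probe sets, such as those of CTH given above, differed by more.

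A gene was counted as higher where the mean difference of a line was at least 0.5 log2 (1.41-fold) with 1 sign in both sets. In the p53-null line 2 of the 8 genes, CHAC1 and SLC7A11, passed as higher, beside 0.338% of all genes, and 0 passed as lower, beside 0.156%. In HCT116 0 of 8 passed in either direction over both sets, beside 0.408% and 0.612%. Per set, 2 of 8 were at least 0.5 log2 higher in p53-null replicate 1 (0.553% of all genes), in p53-null replicate 2 (0.253%) and in HCT116 replicate 2 (1.29%), and 0 of 8 in HCT116 replicate 1 (0.677%). CHAC1 and SLC7A11 were among the 30 genes (0.161%) that were higher by at least 0.5 log2 in each of the 3 sets without HCT116 replicate 1. Because the genes were chosen on this contrast, nothing is read from these shares. The median difference of the 8 genes was 0.044, 0.056, -0.046 and 0.043 log2 in p53-null replicates 1 and 2 and HCT116 replicates 1 and 2, beside 0.0063, 0.0014, 0.0075 and 0.013 over all genes.

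**Figure D2:**
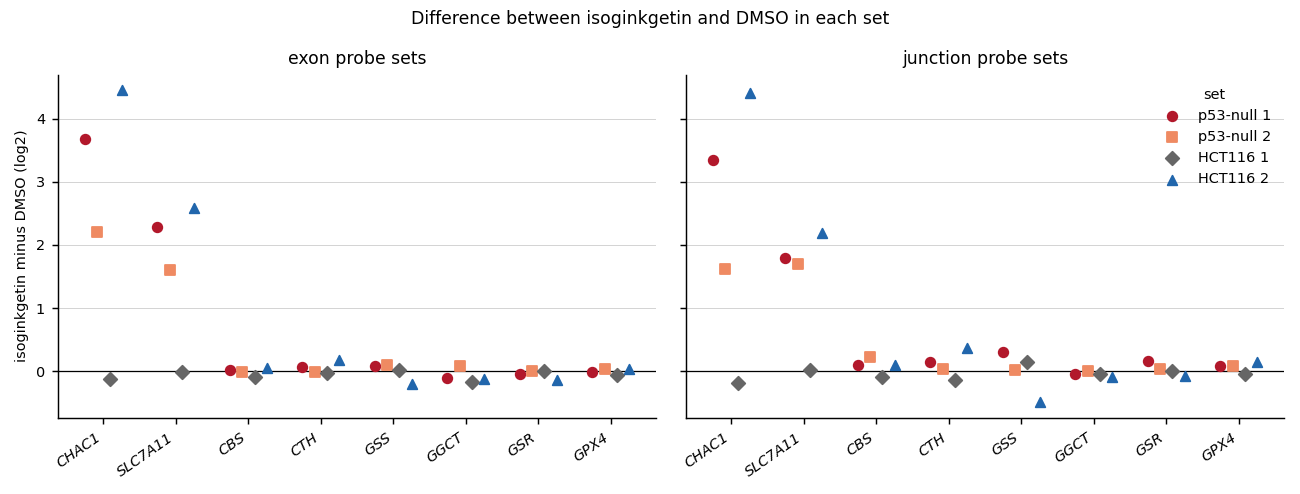
Isoginkgetin minus DMSO (log2, vertical axis) for each of the 8 genes (horizontal axis) in each of the 4 sets, from exon probe sets in the left panel and junction probe sets in the right one; each point is 1 set. CHAC1 and SLC7A11 lie at 1.60 to 4.45 log2 in 3 sets and near 0 in HCT116 replicate 1, and the exon means of the other 6 genes lie between -0.21 and 0.18.

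The single probe sets show where in CHAC1 and SLC7A11 the difference was read. For CHAC1, 7 of 10 exon probe sets were at least 1 log2 higher with isoginkgetin in each of the 3 sets, by 2.14 to 7.23 log2 in p53-null replicate 1, 1.62 to 4.77 in replicate 2 and 4.34 to 7.93 in HCT116 replicate 2. The same 7 differed by -0.59 to -0.0090 log2 in HCT116 replicate 1, where their levels with DMSO were 7.75 to 14.2 log2. The remaining 3 exon probe sets stayed within -0.20 to 0.27 log2 in all 4 sets, with DMSO levels of 2.47 to 6.36 log2. The gene mean of CHAC1 therefore averages probe sets with and without a difference.

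For SLC7A11, 16 of 16 exon probe sets were at least 1 log2 higher with isoginkgetin in each of the 3 sets, by 1.59 to 3.08, 1.24 to 2.00 and 2.16 to 3.08 log2. In HCT116 replicate 1 they differed by -0.27 to 0.45 log2. Among junctions, 2 of 3 in CHAC1 and 10 of 13 in SLC7A11 were at least 1 log2 higher in each of the 3 sets. As junction means, CHAC1 was higher with isoginkgetin by 3.34 and 1.62 log2 in p53-null replicates 1 and 2 and by 4.40 in HCT116 replicate 2, and differed by -0.19 in HCT116 replicate 1. SLC7A11 junctions were higher by 1.80, 1.70 and 2.19 log2 in these 3 sets and differed by 0.015 in HCT116 replicate 1. Junction and exon means of both genes thus had the same sign in these 3 sets. Junction minus exon was -0.33, -0.58 and -0.053 log2 for CHAC1 and -0.48, 0.098 and -0.39 for SLC7A11. The CHAC1 junction mean includes 1 probe set of 3 that differed by only -0.18 to 0.36 log2. Over the CHAC1 probe sets at least 1 log2 higher in each set, junctions averaged 4.84, 2.53 and 6.62 log2, against 5.22, 3.16 and 6.39 for exons. No lack of junction signal is read from these values.

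**Figure D3:**
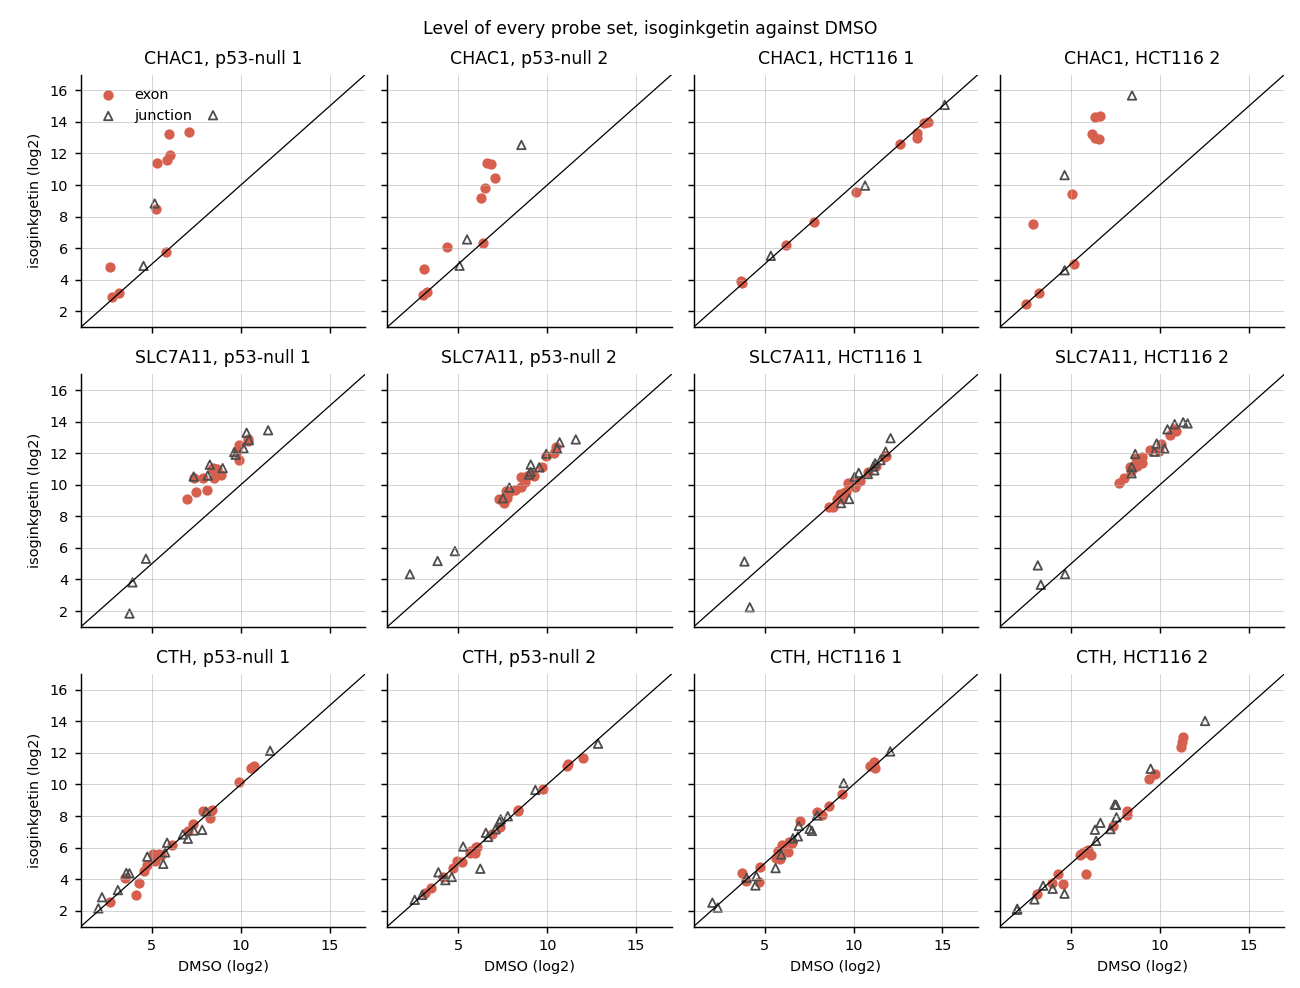
Level of every exon (filled circles) and junction (open triangles) probe set of CHAC1, SLC7A11 and CTH with isoginkgetin (vertical axis, log2) against its level with DMSO (horizontal axis, log2) in each set; the line marks equal levels. In 3 sets 7 of 10 CHAC1 and 16 of 16 SLC7A11 exon probe sets lie at least 1 log2 above the line, and in HCT116 replicate 1 the exon probe sets of both lie within -0.59 to 0.45 of it. The 5 CTH exon probe sets of at least 9.40 log2 with DMSO lie 0.94 to 1.75 above it in HCT116 replicate 2.

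Without drug, CHAC1 had its highest level in HCT116 replicate 1. As the mean of the DMSO and untreated arrays, it stood at 9.97 log2 there, 5.09 and 5.35 in p53-null replicates 1 and 2, and 5.07 in HCT116 replicate 2, a gap of 4.80 log2 to the mean of the other 3 sets. CBS stood at 9.81 log2 in that set and at 3.32 to 3.63 in the others, a gap of 6.35. SLC7A11 stood at 10.07 log2 in that set and at 8.75 to 9.26 in the others, a gap of 1.11. Over all genes the median gap was 0.60 log2, and 1.1% of genes had a gap at least as high as that of CHAC1, 0.5% as that of CBS and 19.5% as that of SLC7A11. After quantile scaling or centring of the arrays the gap was 4.15 or 4.10 log2 for CHAC1, 5.70 or 5.65 for CBS and 0.50 or 0.41 for SLC7A11.

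The other 5 genes had gaps of 1.05 log2 (GGCT), 0.58 (GSR), 0.30 (GSS), 0.24 (CTH) and 0.097 (GPX4), and that of GGCT was 0.40 after quantile scaling and 0.35 after centring. Those of CTH, GSS and GPX4 turned negative under both scalings and that of GSR under centring, at -0.13. The set with the high levels of CHAC1 and CBS is the set with a lower mean of epithelial markers and a higher mean of mesenchymal markers. The part of that in these levels was not tested. Among the 3 other sets, the p53-null mean minus HCT116 replicate 2 was largest for GSR, at -0.63 log2, with p53-null levels of 11.87 and 12.10 against 12.62 in HCT116 replicate 2, and it was -0.51 and -0.53 under quantile scaling and centring. For CHAC1 it was 0.15 log2, less than the gap of 0.26 between the p53-null sets, and after quantile scaling and centring it was 0.22 and 0.25, with gaps of 0.063 and 0.060. For SLC7A11 it was -0.45 log2, and the p53-null sets differed by -0.11, replicate 2 minus 1. After quantile scaling the line difference was -0.24 log2 and that between the p53-null sets -0.39, and after centring they were -0.35 and -0.31, so the line difference of SLC7A11 was not clear of the spread between replicates.

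The choice of the 8 genes did not rest on the difference between DMSO and untreated cells. That comparison does share its arrays with the drug contrast and with the levels without drug. It was tested with limma over all 18613 genes with the set as a block. DMSO minus untreated ran from -0.26 to 0.18 log2 over the 8 genes and 4 sets. In the p53-null line 0 of 8 passed an adjusted p of 0.05, and in HCT116 0 of 8, beside 0% of all genes in each line, with adjusted p = 0.9998 and 1 for the 8 genes. At an unadjusted p under 0.05, 0 of 8 passed in either line, beside 4.35% of all genes in the p53-null line and 2.21% in HCT116. The average difference of CHAC1 was -0.11 log2 (SE 1.06, n = 2 sets) in p53-null cells and -0.018 (SE 1.06, n = 2 sets) in HCT116, and that of SLC7A11 was -0.13 and -0.063 (SE 0.55 each, n = 2 sets). The fit estimates 1 spread per gene over all arrays, and it therefore includes the isoginkgetin differences of the 2 HCT116 sets, which were unlike. It also includes those of the p53-null sets, 3.67 and 2.21 log2 for CHAC1, where DMSO minus untreated had an SD of 0.14. A small solvent difference of CHAC1 could therefore hardly have passed, and no absence of one is read from this test. CTH in HCT116 was nearest to passing, at 0.13 log2 (SD 0.074, n = 2 sets). Without HCT116 replicate 1, 0 of 8 passed in either line at an adjusted or an unadjusted p under 0.05, beside 0% of all genes adjusted and 7.54% (p53-null) and 4.88% (HCT116) unadjusted. The CHAC1 difference was then -0.11 log2 (SE 0.33) in p53-null cells and 0.037 (SE 0.47) in HCT116 replicate 2, and that of CTH 0.075 (SE 0.059) in HCT116 replicate 2.

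The rest of the pathway was read from a list of 87 further genes in 11 roles, of which 85 were measured. SLC3A2, the heavy chain that carries SLC7A11 to the membrane, stood at 10.79 and 11.11 log2 with isoginkgetin in p53-null replicates 1 and 2, against 10.58 and 10.89 with DMSO. In HCT116 it stood at 10.54 and 11.11 with isoginkgetin in replicates 1 and 2, against 10.51 and 10.72 with DMSO. Its p53-null difference was 0.21 log2 (SD 0.0034, n = 2 sets), with a limma adjusted p = 0.42 over all arrays and 0.046 without HCT116 replicate 1, and in that second fit it rose in HCT116 replicate 2 by 0.39 log2 (adjusted p = 0.0075).

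GCLC and GCLM, the catalytic and modifier subunits of glutamate-cysteine ligase, passed no test in either line. GCLC differed by -0.058 log2 (SD 0.032, n = 2 sets) in p53-null cells, by -0.22 in HCT116 replicate 1 and by -0.11 in HCT116 replicate 2. GCLM differed by -0.0055 log2 (SD 0.033, n = 2 sets) in p53-null cells, by 0.019 in HCT116 replicate 1 and by 0.15 in HCT116 replicate 2. CHAC2, the relative of CHAC1 with the same reaction, differed by -0.71 and -0.080 log2 in p53-null replicates 1 and 2 and by -0.48 and -0.15 in HCT116 replicates 1 and 2, and passed no test (adjusted p = 0.39 and 0.26). Against untreated in place of DMSO cells, its p53-null mean was -0.14 log2 instead of -0.39, as p53-null replicate 1 read 7.38 with DMSO and 6.91 untreated. The 4 CHAC2 values lay below 0 while those of CHAC1 lay above 0 in 3 sets.

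Over all arrays, 0 of the 85 genes passed as higher or lower in the p53-null line, beside 0.215% and 0.183% of all genes, and 16 had an unadjusted p under 0.05 (18.8%, against 11.7% of all genes). In HCT116 1 of 85 rose and 0 fell, beside 0.677% and 3.05% of all genes, and 28 had an unadjusted p under 0.05 (32.9%, against 25.5% of all genes). The one was GSTO2, an omega-class glutathione transferase, with 0.28 and 0.22 log2 in replicates 1 and 2 (adjusted p = 0.032), a call that was lost without either p53-null set, with the median of exon probe sets, against untreated cells, with 1 effect over the sets and without the block (adjusted p = 0.065 to 1). Without HCT116 replicate 1, 2 of 85 rose in the p53-null line and 0 fell, beside 1.22% and 1.16%. These were SLC3A2 and CNDP2, the dipeptidase that splits cysteinylglycine, the product of CHAC1. CNDP2 was higher than with DMSO by 0.32 and 0.30 log2 in p53-null replicates 1 and 2. Its DMSO minus untreated difference in that line averaged -0.17 log2, so its rise was smaller against untreated cells.

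In HCT116 replicate 2, tested as a single set with the spread of the p53-null sets, 11 of 85 rose and 10 fell, beside 4.84% and 9% of all genes, or 24.7% against 13.8% in both directions together. That 1 set has no replicate, so its spread is assumed to be that of the p53-null sets. Among carriers of cystine, cysteine and glutamate, SLC1A4, a carrier of neutral amino acids, rose by 1.07 log2, and SLC3A2 rose as given above. SLC38A2, a sodium-coupled carrier, rose by 0.29, while SLC1A3, a glutamate carrier, fell by 0.61. The mean level of SLC1A3 over all arrays was low, at 4.69 log2, below the lowest array median over genes (5.115).

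TXN2, the mitochondrial thioredoxin, had the lowest value of the 85 genes in this set, -1.15 log2 (adjusted p = 0.00081), and stood at -0.058 and -0.070 in p53-null replicates 1 and 2 and -0.29 in HCT116 replicate 1. CNDP2 fell by 0.57 log2 (adjusted p = 0.0034), opposite in sign to the p53-null line. AHCY, which makes homocysteine, the substrate of CBS, fell by 0.37 log2, and GPX1, the cytosolic glutathione peroxidase, by 0.26. The remaining calls were small. ABCC3 (0.34 log2), SLC25A39 (0.32), GOT1 (0.30), ETHE1 (0.24), GSTZ1 (0.24), ESD (0.23), GSTO2 (0.22) and GLRX2 (0.21) rose, and ABCC4 (-0.36), GLRX5 (-0.33), ACSL4 (-0.32), AIFM2 (-0.27) and ABCC5 (-0.22) fell. SLC25A39 carries glutathione into mitochondria, AIFM2 is the ferroptosis suppressor FSP1 and ACSL4 builds the oxidisable phospholipids that GPX4 protects.

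**Figure D4:**
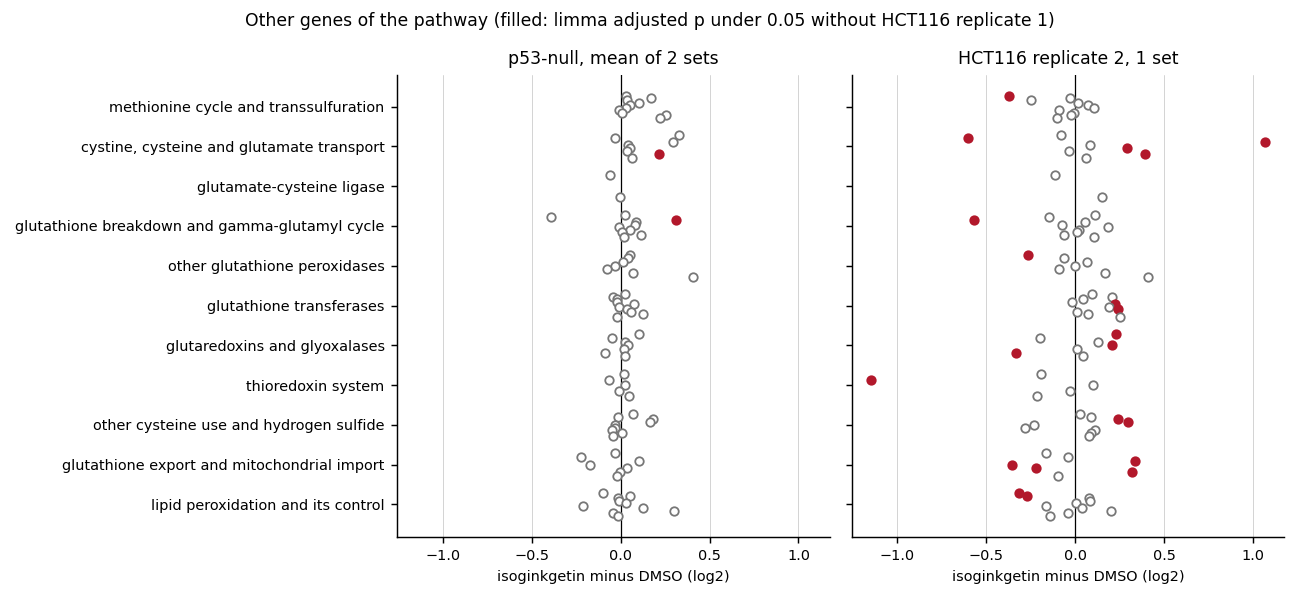
Isoginkgetin minus DMSO (log2, horizontal axis) for the 85 measured further genes of the pathway by role (vertical axis), as the mean of 2 sets in the p53-null line (left) and in HCT116 replicate 2 (right); each point is 1 gene and filled points passed limma at an adjusted p under 0.05 in the fit without HCT116 replicate 1. In the p53-null line 2 points are filled and all lie within 0.41 log2 of 0, and in HCT116 replicate 2 21 are filled, with TXN2 at -1.15 and SLC1A4 at 1.07.

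The difference between the lines, p53-null minus HCT116, was tested as an interaction. Over all arrays 0 of 85 genes passed, beside 0% of all genes, and 13 had an unadjusted p under 0.05 (15.3%, against 13.1% of all genes). Without HCT116 replicate 1, 5 passed as higher in the p53-null line and 1 as lower, beside 3.94% and 1.99% of all genes. TXN2 differed by 1.08 log2 (adjusted p = 0.0039), CNDP2 by 0.88 (adjusted p = 0.0068), SLC1A3 by 0.57 (adjusted p = 0.014), AIFM2 by 0.33 (adjusted p = 0.038) and GPX1 by 0.32 (adjusted p = 0.042), and SLC1A4 by -0.77 (adjusted p = 0.027). This comparison sets 2 p53-null sets against 1 HCT116 set. SLC3A2 did not pass it (-0.18 log2, adjusted p = 0.17), nor did GCLC, GCLM and CHAC2.

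The genes whose pattern over the 12 arrays, after removal of each set's mean, was most like that of CHAC1 were ASNS (r = 0.999), PSAT1, DDIT4, ATF4, SLC7A11 (r = 0.992), ULBP1, XBP1, ATF3, HERPUD1 and SESN2 (r = 0.985). Those most like SLC7A11 were ATF4 (r = 0.998), PSAT1, DDIT4, CHAC1, SLC16A6, ATF3, ASNS, TUBE1, XBP1 and CREB3L2 (r = 0.990), and 6 genes stood on both lists. These r are across 12 arrays that share 4 sets and rest on 3 isoginkgetin arrays that lie high, so they describe and test nothing. Over the 9 arrays without HCT116 replicate 1 the r of the same genes were 0.990 to 0.999 with CHAC1 and 0.992 to 0.998 with SLC7A11. ASNS, asparagine synthetase, was higher with isoginkgetin by 1.22 and 0.82 log2 in p53-null replicates 1 and 2 and by 1.49 in HCT116 replicate 2, and differed by -0.099 in HCT116 replicate 1. ATF4 was higher by 0.88, 0.55 and 0.92 log2 in the same 3 sets, and differed by -0.019 in HCT116 replicate 1. DDIT4, an inhibitor of mTORC1, was higher by 2.79, 1.58 and 2.91 log2 and SESN2, a sestrin, by 1.69, 0.86 and 1.61. SLC16A6, a carrier of the monocarboxylate family, was higher by 2.17, 1.86 and 2.92 log2.

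In HCT116 replicate 1 the 10 genes most like CHAC1 differed by -0.099 to 0.30 log2 between isoginkgetin and DMSO. With DMSO, 8 of the 10 had their highest level of the 4 sets in HCT116 replicate 1, beside 76.7% of all genes, which read higher there in general. The count was also 8 of 10 after quantile scaling, beside 35.7% of all genes, and after centring, beside 28.2%. CHAC1 itself was highest in that set as well. ASNS was at 11.4 log2 there against 7.37 to 8.26 in the other sets. ULBP1 and ATF3 did not, with ULBP1 at 4.65 log2 in HCT116 replicate 1 against 7.03 to 7.67. Of the 9 genes with a promoter entry, 3 (ASNS, ATF3 and HERPUD1) held the TGATGNAA element shown for CHAC1, beside 3.89% of gene symbols. Among the 9 with an entry most like SLC7A11, 3 held it as well. These were CHAC1 itself, ATF3 and ASNS, so the second count largely repeats the first. Among the 8 genes themselves, the r with CHAC1 was 0.646 for CTH, 0.422 for CBS, 0.295 for GPX4, -0.261 for GSS, -0.430 for GGCT and -0.800 for GSR. Over the 9 arrays without HCT116 replicate 1 these were 0.806, 0.736, 0.314, -0.294, -0.728 and -0.883 in the same order. In all 6 of these genes the gene-mean difference between isoginkgetin and DMSO lay between -0.21 and 0.18 log2. For CTH that mean covers the 5 brightest exon probe sets, which were 0.94 to 1.75 log2 higher with isoginkgetin in HCT116 replicate 2.

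**Figure D5:**
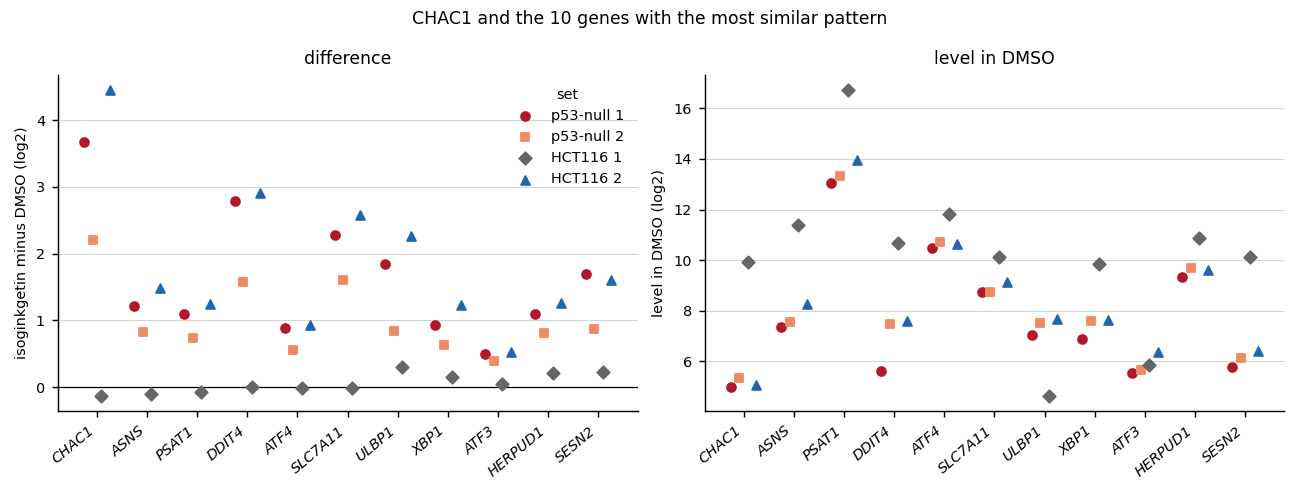
CHAC1 and the 10 genes with the most similar pattern (horizontal axis): isoginkgetin minus DMSO (left, log2) and level with DMSO (right, log2) in each of the 4 sets; each point is 1 set. All have higher values with isoginkgetin in 3 sets, and in HCT116 replicate 1 the differences of the 10 genes are -0.099 to 0.30 and 8 of the 10 have their highest DMSO level, as do 76.7% of all genes.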

How the data were processed

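Total RNA from HCT116p53-/- and HCT116 cells was hybridised to 12 arrays, in 4 sets of 1 line and 1 replicate number. The authors scaled and summarised the arrays with Transcriptome Analysis Console 4.0 at default settings, per the series text, and deposited log2 values in a probe-set table and a gene-level table. No source used here names the summarisation method or the genome build. The columns of the tables were matched to samples by their names.

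The exon probe sets with exactly 1 symbol were averaged per gene, for the 18613 genes with at least 3, and junction probe sets were averaged separately. Averaging gives dim and bright probe sets the same weight, which can understate a fold difference. In the gene-level values between 78.9% and 90.1% of genes had equal values with isoginkgetin and DMSO within a set, so the probe-set table was used. The number of arrays limits the precision.

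limma 3.58.1 in R 4.3.3 was fitted to all genes with the set as a block and treatment effects per line (4 residual degrees of freedom), with Benjamini-Hochberg adjustment over all genes and a threshold of 0.05. The set was used as a block because deviations from group means of arrays with the same line and number correlated at 0.903 to 0.997. These are 6 distinct values, since the deviations of 2 replicates mirror each other. They were 0.903 to 0.904 in the p53-null line and 0.985 to 0.997 in HCT116. The HCT116 values carry the unlike replicate 1, so they do not show pairing within an experiment. On simulated data, for isoginkgetin against DMSO in the p53-null line over 18613 genes, 82 of 100 genes changed by 0.5 log2 and 99 of 100 changed by 1 log2 were recovered, with 14 false calls. The changed genes were drawn at random, with normal noise at each gene's own fitted spread. These rates therefore need not hold for genes with a wide spread. CHAC1 and SLC7A11 are such genes (SE 1.06 and 0.55 for DMSO against untreated over all arrays). Further steps used Python 3.11.15 and pandas 2.3.3.

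The genes, the lists of pathway genes and markers and the tests were chosen with earlier results of these data known. Named genes are the 8 genes, SLC3A2, GCLC, GCLM and CHAC2, the other pathway genes called in either line or in the difference between lines (at most 20 by adjusted p), and the 10 genes most like CHAC1 and SLC7A11. GGT1 and SRXN1 were listed but not measured. Alternatives were leaving out each set, quantile scaling, array centring, the median of exon probe sets, filters at 5 and 8 log2 (the second chosen after seeing the data), junction probe sets, the gene-level table, no block, a variance trend, untreated cells as control and 1 effect over the sets.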

Additional observations from a re-analysis of the deposited data

Results flagged for a closer look

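Of the 85 pathway genes, 11 (12.9%) had one sign in both p53-null sets and the opposite sign in both HCT116 sets between isoginkgetin and DMSO, beside 13% of all genes. These were CNDP2, AHCY, GPX1 and ABCC5, which also passed a test elsewhere in the report, and MTR (0.381), MTRR (0.292), TXNRD2 (0.183), LAP3 (0.151), SUOX (-0.0847), ALOX15 (-0.113) and CSAD (-0.139), given as p53-null minus HCT116 in log2 and named after their values were seen. The p53-null mean minus the HCT116 mean was 0.641 log2 for CNDP2, 0.266 for AHCY, 0.218 for GPX1 and 0.177 for ABCC5. The opposite signs themselves were not tested, and the limma interaction over all arrays gave adjusted p-values of 0.19, 0.34, 0.34 and 0.36. As the share of pathway genes was near that of all genes, nothing is read from it. Some signs rest on values near 0, such as SUOX at -0.00085 log2 in p53-null replicate 2 and LAP3 at -0.016 in HCT116 replicate 1. The p53-null means of AHCY and GPX1 were 0.031 and 0.055 log2. DMSO minus untreated averaged -0.13 and -0.059 log2 for them in that line, so both signs depend on the control used. HCT116 replicate 1, the set that stood apart, is 1 of the 2 HCT116 sets used here.

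Without HCT116 replicate 1, the interaction estimates were 1.08 log2 for TXN2, 0.882 for CNDP2, 0.574 for SLC1A3, 0.325 for AIFM2, 0.319 for GPX1 and -0.774 for SLC1A4. They are given as p53-null minus HCT116. The HCT116 side is 1 set without a replicate, so a difference between the lines cannot be told apart from that single experiment. The AIFM2 responses in HCT116 replicates 1 and 2 were 0.26 and -0.27 log2, so that its difference over all arrays was 0.060 log2. No cause of these differences was tested.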

How the results depend on the processing

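CHAC1 and SLC7A11 were higher in the p53-null line under 10 other settings that could move them, by 2.21 to 3.92 log2 and 1.60 to 2.28 log2. The filter at 8 log2 gave 4.996 for CHAC1, but its probe sets pass that filter only through HCT116 replicate 1, as do those of CBS. In HCT116 the count of the 8 genes past the size rule, 0 over both sets, was 2 without replicate 1 and 1 under quantile scaling, array centring, the median of exon probe sets, untreated cells as control and junction probe sets. Of the 85 pathway genes, calls in the p53-null line ran from 0 to 2 higher when sets were left out in turn (2 without HCT116 replicate 1 and 2 without HCT116 replicate 2), and 1 higher and 1 lower gene were called with 1 effect over 4 sets and 1 higher with 1 effect over 3 sets. In HCT116, leaving out sets gave 0 to 11 higher and 0 to 10 lower genes, the extremes being without p53-null replicate 1 or 2 (0 higher) and without HCT116 replicate 1; without HCT116 replicate 2 they were 4 and 2. Quantile scaling gave 2 higher, the median of exon probe sets 0, untreated cells as control 2 higher and 2 lower, the filter at 5 log2 2 lower, and 1 effect over 4 sets 1 lower. Without the replicate block 0 pathway genes were called in either line, and 0 of all genes against 74 (p53-null) and 693 (HCT116) with it; with a variance trend these were 3 and 482. The difference between lines gave up to 5 higher and 2 lower genes when HCT116 sets were left out (5 and 1 without replicate 1, 0 and 2 without replicate 2).

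Small values changed sign. GCLM in the p53-null line, -0.0055 log2, was -0.029 to 0.018 with 1 set left out (0.018 without p53-null replicate 1), 0.046 with the median, 0.045 against untreated cells, 0.040 over 4 sets and 0.047 over 3 sets. SLC3A2 in HCT116, 0.21 log2, was -0.13 with the median. In the difference between lines, SLC3A2 (0.0071) was -0.18 to 0.19 with 1 set left out (-0.18 without HCT116 replicate 1), -0.054 with quantile scaling and -0.011 with centring; GCLM (-0.090) was 0.041 against untreated cells; and CHAC2 (-0.082) was -0.40 to 0.23 with 1 set left out (0.23 without p53-null replicate 1, 0.082 without HCT116 replicate 2), 0.23 with the median, 0.18 with the filter at 5 log2 and 0.13 against untreated cells. The cause of these changes was not tested. The gene-level table was not run for tests, since most of its values are equal within a set.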
